A study of Homo sapiens with 12 samples.

Results

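The genes that encode the NF-κB subunits (NFKB1, NFKB2, RELA, RELB and REL) and their inhibitors and modulators (NFKBIA, NFKBIB, NFKBIE, TNFAIP3 and BCL3) were examined for H3K27ac, the acetyl group on lysine 27 of histone H3 that is carried by promoters and enhancers in use. These 10 genes, of 20033 protein-coding genes, were chosen by name, with earlier results of these data known. Peaks were taken within 1 kb and within 50 kb of their GENCODE transcript starts, and within 200 kb for TNFAIP3. Of 38598 merged H3K27ac regions in the whole series, 61 lay in these windows, 34 of them at the start of a protein-coding gene and 27 distal.

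H3K27ac was profiled by CUT&RUN, in which an antibody brings a nuclease to its target so that the bound chromatin is cut out and sequenced, in HCT116, an established line of human colorectal carcinoma cells. The 3 conditions were untreated cells, cells given cobimetinib, an inhibitor of the kinase MEK, at 1 μM for 24 hours, and cells given TNFα, an inflammatory cytokine, at 100 ng/ml for 24 hours, with 2 libraries each (replicates 1 and 2). All libraries came from the same parental line in the same medium, no allele was altered, and the labels do not say whether the replicates were separate cultures. A second set of 6 libraries, made with nonspecific IgG, is not analysed here, so no background measured in the same way was subtracted.

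NF-κB proteins bind DNA as dimers. In resting cells the inhibitors of the IκB family (NFKBIA, NFKBIB and NFKBIE) hold most dimers in the cytoplasm, and TNFα, through its receptor and the IκB kinase complex, leads to their degradation so that the dimers enter the nucleus. NF-κB is known to act on several of its own genes, including inhibitors that shut the response off again, and in intestinal epithelium it is a central regulator of inflammatory signaling.

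The deposited lists held between 69813 and 124771 peaks per library, and sequencing depth is unknown from them. Each peak has a score, and a peak was followed by its rank within its own list, where rank 1 is the highest score and tied peaks share their mean rank. Untreated replicate 2 stood apart from the other 5 libraries. Its 20000 highest-scoring peaks had a median width of 380 bp, against 922 to 1265.5 bp elsewhere, and 7102 of its peaks shared the score at that limit, against at most 533. Peak names show that this library alone was merged after resequencing. Results that use the untreated libraries are therefore given with and without it. A peak lay at the promoter of 58.8 to 65.4% of all protein-coding genes. Of 10 epithelial marker genes, 9 had a promoter peak in every library and VIL1 had none, whereas 3 to 5 of 10 markers of blood, endothelial and stromal cells had one, with CD14, DCN, SPI1 and VWF at none in any library. The stromal marker COL1A1 went the other way, with a peak in every library at ranks of 2339.5 to 9958.5. Among the 20000 highest peaks were 4 to 9 epithelial markers and 1 or 2 of the others.

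A condition was called higher where both of its libraries ranked a promoter above both libraries of the other condition, that is, where the groups did not overlap. With 2 libraries against 2, an exact permutation test cannot give a two-sided p under 0.333, so each count of calls is set beside the share of all genes with a promoter peak that met the same rule. The comparisons of TNFα and of cobimetinib with untreated cells share the untreated libraries and are not independent of each other. The comparison of TNFα with cobimetinib does not use them.

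The promoters are shown first because many, though not all, of the member windows there hold the same sequence feature. The consensus binding word of NF-κB (the κB word, 10 bases, searched on both strands) was present in 8 of the 13 RefSeq promoter windows of the members (61.5%), against 5.91% of 35116 such windows in the genome. These windows run from 250 bases before to 50 bases after a start, and 8 of the 10 members matched an entry, all but RELB and NFKBIE. The AP1 word TGANTCA was present in 1 of the 13 windows (7.69%), against 7.71% of all windows. The member windows were also richer in G and C, with a median of 68.7% against 58.7%, and the part of base composition in the κB count was not tested. The 150 bases before the start follow for NFKB1, NFKBIA and NFKBIB, whose promoters ranked higher under TNFα than in untreated cells, and for NFKB2 and TNFAIP3, which were added after their values were seen. Bases run 5′ to 3′ in the direction of transcription and κB words are in capitals. The sequences are from the RefSeq promoter table (GRCh38.p14).

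NFKB1, chr4:102501209-102501358 (plus strand): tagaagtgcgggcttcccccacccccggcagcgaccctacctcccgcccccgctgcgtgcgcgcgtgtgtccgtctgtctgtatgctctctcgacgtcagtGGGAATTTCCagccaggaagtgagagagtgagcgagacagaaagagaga
NFKB2, chr10:102394428-102394577 (plus strand): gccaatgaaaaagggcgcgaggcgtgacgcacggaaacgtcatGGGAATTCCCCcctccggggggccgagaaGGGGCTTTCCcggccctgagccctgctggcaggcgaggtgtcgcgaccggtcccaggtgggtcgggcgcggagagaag
NFKB2, chr10:102395555-102395704 (plus strand): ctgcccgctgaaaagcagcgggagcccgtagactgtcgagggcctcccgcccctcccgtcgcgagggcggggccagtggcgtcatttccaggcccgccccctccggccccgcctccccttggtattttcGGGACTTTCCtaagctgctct
NFKBIA, chr14:35404750-35404899 (minus strand): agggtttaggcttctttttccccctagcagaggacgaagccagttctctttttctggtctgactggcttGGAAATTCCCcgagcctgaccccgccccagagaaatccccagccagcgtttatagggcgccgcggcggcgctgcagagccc
NFKBIB, chr19:38899819-38899968 (plus strand): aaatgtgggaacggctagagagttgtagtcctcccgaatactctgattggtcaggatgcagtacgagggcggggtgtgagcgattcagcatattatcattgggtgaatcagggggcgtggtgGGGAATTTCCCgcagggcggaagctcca
TNFAIP3, chr6:137867109-137867258 (plus strand): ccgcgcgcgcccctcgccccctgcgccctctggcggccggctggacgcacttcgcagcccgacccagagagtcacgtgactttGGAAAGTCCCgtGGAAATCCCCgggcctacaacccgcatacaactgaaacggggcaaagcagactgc

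The word began 49 bases before the start in NFKB1, 81 bases before it in NFKBIA and 28 bases before it in NFKBIB. NFKB2 is shown at both of its starts with a word, at 107 and 78 bases from the first and at 21 bases from the second, where a further word at 176 bases lies outside the sequence. TNFAIP3 carried words at 67 and 55 bases before its start. Outside the sequences shown, REL held a word 47 bases before its start, BCL3 held one that begins just after it, and neither RELA window held one. A match describes these letters only.

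Among the subunits, NFKB1 encodes the precursor of a DNA-binding subunit of the canonical dimers. Its promoter ranked 7004 and 5496.5 in untreated replicates 1 and 2, 5728 and 3605 under cobimetinib, and 4895.5 and 3641 under TNFα. The 2 TNFα libraries both ranked it above the untreated ones, a log2 rank difference of 0.56 (mean log2 rank of untreated minus that of TNFα, so that a value above 0 means a higher place under TNFα) and 0.73 without untreated replicate 2. The cobimetinib values overlapped both other groups.

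NFKB2 encodes the precursor that is processed in the noncanonical pathway, and of the subunit promoters its own differed most between the treatments. It ranked 3527.5 and 2069.5 in the untreated libraries, 8192 and 4282 under cobimetinib, and 2224.5 and 1246 under TNFα. The TNFα libraries lay above both cobimetinib libraries by 1.83 on the log2 rank scale, and the cobimetinib libraries below both untreated libraries, with a difference of -1.13 and of -0.75 without untreated replicate 2. TNFα and untreated values overlapped, since untreated replicate 2 ranked above TNFα replicate 1. Without it the TNFα libraries were higher by 1.08. Peaks covered 2593 and 2304 bp of this promoter region under TNFα, 2355 and 2089 bp under cobimetinib, and 2150 and 796 bp in untreated cells.

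RELB, the transactivating partner of the processed NFKB2 product, had the best-ranked member promoter under TNFα. The ranks were 1062 and 4526.5 in untreated cells, 847 and 1536.5 under cobimetinib, and 310 and 828 under TNFα. TNFα stood above untreated cells by 2.11, or 1.07 without untreated replicate 2, and above cobimetinib by 1.17. The margin over cobimetinib was narrow, 828 against 847, and the groups overlapped once each rank was divided by the length of its list (0.268 and 0.893% of the list under TNFα, 0.797 and 2.20% under cobimetinib). The RELB peaks were not wider under TNFα, at 745 and 989 bp, than under cobimetinib (1255 and 1190 bp) or in untreated replicate 1 (1219 bp).

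REL and RELA encode the subunits with transactivation domains of the canonical pathway. REL held a high place throughout, at 1172.5 and 1387.5 in untreated cells, 1662 and 1449 under cobimetinib and 1133 and 1971.5 under TNFα, and the cobimetinib ranks lay just below the untreated ones (a difference of -0.28, and of -0.40 without untreated replicate 2). RELA ranked 3493 in untreated replicate 1 but 39474.5 in untreated replicate 2, against 6632 and 4880.5 under cobimetinib and 4746.5 and 9157 under TNFα. Its direction against untreated cells hung on that library: the TNFα difference was 0.83 with it and -0.92 without it. For REL, TNFα and untreated values overlapped.

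Of the IκB genes, NFKBIA, which encodes IκBα, the inhibitor resynthesized after NF-κB activation, stood higher in both treatments. Its promoter ranked 20987 in untreated replicate 1 and had no peak in untreated replicate 2, while it ranked 10969 and 8096.5 under cobimetinib and 10129.5 and 17215 under TNFα. Each treatment placed it above both untreated libraries. Without untreated replicate 2, so with no missing peak, the difference was 0.67 for TNFα and 1.16 for cobimetinib. The treatments overlapped each other.

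NFKBIB, which encodes IκBβ, shares its promoter window with SIRT2, a deacetylase gene that starts in the opposite direction, so a peak there cannot be assigned to either gene. The ranks were 4036.5 and 6214 in untreated cells, 5030 and 1020.5 under cobimetinib, and 3639 and 3641 under TNFα. TNFα was higher than untreated by 0.46, and by only 0.15 without untreated replicate 2. NFKBIE, which encodes IκBε, ranked 12221.5 and 75834.5 in untreated cells, 25898 and 17372 under cobimetinib, and 15047.5 and 11921 under TNFα. It was higher under TNFα than under cobimetinib by 0.66, while TNFα overlapped untreated cells, with a difference of 1.18 that became -0.13 without untreated replicate 2.

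TNFAIP3 encodes A20, a ubiquitin-editing enzyme that limits NF-κB signaling, and the start of WAKMAR2, a noncoding gene, lies within 1 kb of its own. Its promoter ranked 7526.5 in untreated replicate 1, had no peak in replicate 2, and ranked 9502 and 15620.5 under cobimetinib and 9302 and 13643 under TNFα. The promoter groups overlapped in every comparison of 2 against 2 libraries, and without untreated replicate 2 TNFα lay lower, with a difference of -0.58. BCL3 encodes an atypical IκB protein that works in the nucleus with dimers of the processed precursors. It ranked 3816 and 4526.5 in untreated cells, 9656.5 and 4282 under cobimetinib and 7546 and 6899.5 under TNFα, lower under TNFα by a difference of -0.80 (-0.92 without untreated replicate 2). This was decided by which start was used. The best peaks of untreated replicate 1 and of TNFα replicate 2 lay at an internal start, 5393 bp into the gene, and at the canonical start the ranks overlapped, at 15504 and 4526.5 in untreated cells and 7546 and 18781 under TNFα.

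**Figure D1:**
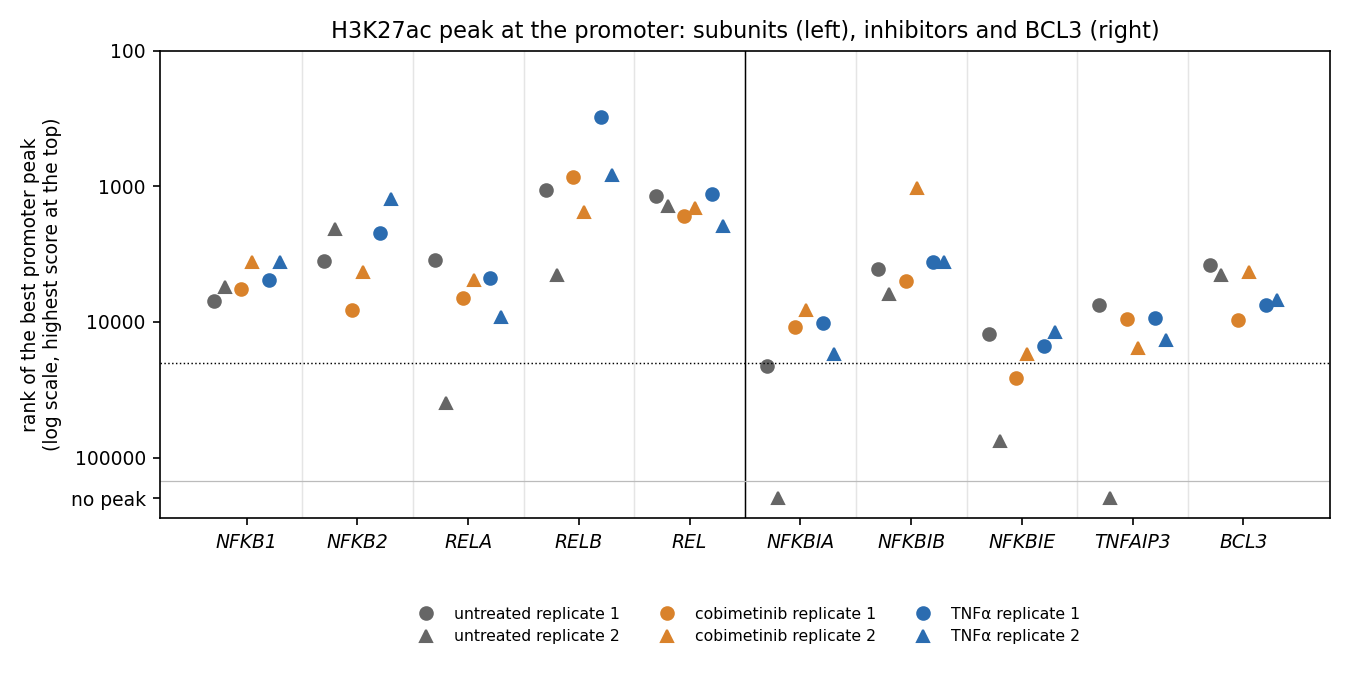
Rank of the best H3K27ac peak within 1 kb of a start (y axis, log scale, highest scores at the top) for each member (x axis), with circles for replicate 1 and triangles for replicate 2. The dotted line marks rank 20000 and the strip at the bottom holds libraries with no peak: for RELB the TNFα libraries are at the top (310 and 828), and for NFKBIA and TNFAIP3 untreated replicate 2 is in the strip.

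Over the 10 members, 4 promoters (NFKB1, RELB, NFKBIA and NFKBIB) ranked higher under TNFα than in untreated cells, where 11.8% of all genes met the rule, and 1 (BCL3) ranked lower, where 13.5% did. Without untreated replicate 2 the counts were 5 higher, with NFKB2 added, against 17.3% of genes, and 3 lower (RELA, TNFAIP3 and BCL3) against 49.1%. The median log2 rank difference of the members was 0.77 against 0.12 for all genes, and 0.01 against -0.34 without that library. Leaving out untreated replicate 1 instead gave 7 higher, as NFKBIE, RELA and TNFAIP3 joined. Leaving out TNFα replicate 1 gave 2 lower (BCL3 and REL), and with starts of protein-coding transcripts only, none was lower. The shares of all genes in these last settings were not computed.

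Cobimetinib ranked 1 member promoter (NFKBIA) higher than untreated cells, where 19.6% of genes met the rule, and 2 (NFKB2 and REL) lower, where 11.6% did. Neither count stood clear of its background. Without untreated replicate 2, 2 were higher (NFKB1 and NFKBIA) against 26.5% of genes and 6 lower (NFKB2, RELA, REL, NFKBIE, TNFAIP3 and BCL3) against 40.9%. The count of higher promoters was 6 without untreated replicate 1, 3 without cobimetinib replicate 1 and 2 without cobimetinib replicate 2. For these the shares of all genes were not computed. The median difference was 0.73 for the members and 0.33 for all genes, and -0.55 against -0.12 without untreated replicate 2.

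Between the treatments, 3 member promoters (NFKB2, RELB and NFKBIE) ranked higher under TNFα, against 14.3% of genes, and none ranked lower, against 26.1%. The median difference was 0.08 for the members and -0.23 for all genes. With a library left out the rule is looser, and the share of all genes that met it was not computed for this comparison. Without cobimetinib replicate 2, or without TNFα replicate 2, 6 promoters were higher under TNFα, and 4 were lower without cobimetinib replicate 1 and 3 without TNFα replicate 1. NFKB2 and NFKBIE were among the higher promoters also with ranks divided by list length, where NFKB1 took the place of RELB.

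**Figure D2:**
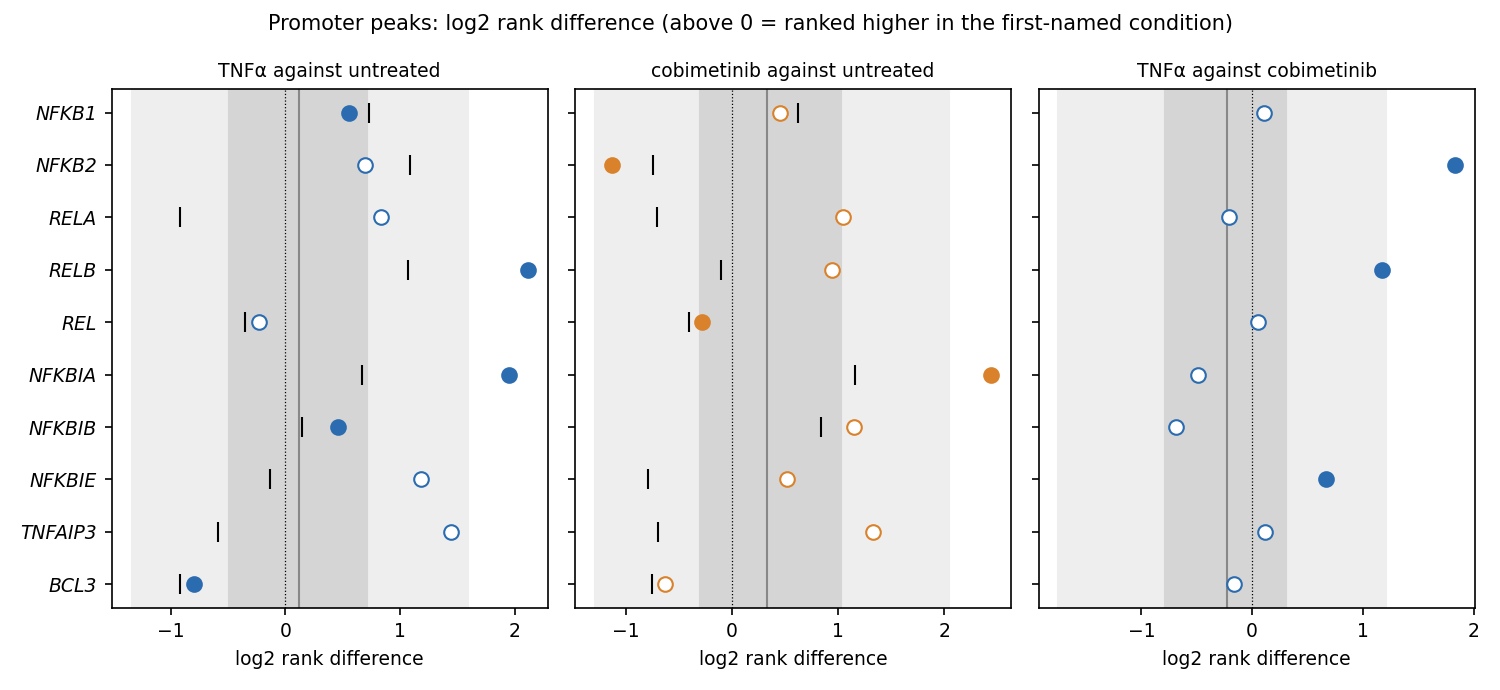
Log2 rank difference of each member promoter (x axis, above 0 where the first-named condition ranked it higher) in the 3 comparisons, as circles, filled where the groups did not overlap, with a black bar for the value without untreated replicate 2. The grey bands hold the middle 50% and 90% of all genes with a promoter peak and the grey line their median (0.12, 0.33 and -0.23): NFKB2 lies beyond the wider band between the treatments, and between TNFα and untreated cells RELA, NFKBIE and TNFAIP3 change side without untreated replicate 2.

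Other genes of the pathway were followed in the same way. Of 18 genes that carry the signal from the receptor to the IκB kinases, 3 ranked higher and 3 lower under TNFα than in untreated cells. Among 12 genes of feedback and ubiquitin control, 4 ranked higher and 1 lower. The backgrounds are again 11.8 and 13.5% of genes. Without untreated replicate 2 the counts were 4 and 10 for the first list and 5 and 2 for the feedback genes, against 17.3 and 49.1%. The median difference of the feedback genes was 0.76 with all libraries and 0.30 without that one, and that of the upstream genes 0.58 and -0.38, where all genes stood at 0.12 and -0.34.

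TNIP1, which encodes a partner of A20, moved furthest. It ranked 17850.5 and 13195.5 in untreated cells, 7009 and 18249 under cobimetinib and 2563 and 1256 under TNFα, a difference between TNFα and untreated cells of 3.10 (3.31 without untreated replicate 2). BIRC3, an antiapoptotic ubiquitin ligase, followed with 8488 and 42366 in untreated cells, 2475 and 5690 under cobimetinib and 2986 and 3099 under TNFα. It was higher in both treatments, and the difference between TNFα and untreated cells was 2.64, or 1.48 without untreated replicate 2. ZC3H12A, which encodes a ribonuclease that degrades inflammatory transcripts, differed by 1.42, and by 0.39 without untreated replicate 2, where it had no peak. The largest changes in the other direction were those of OTULIN, a deubiquitinase of linear chains (-1.69), IKBKB, which encodes a catalytic IκB kinase (-1.67), and MAP3K7, which encodes the kinase TAK1 (-1.10). The values were -1.56, -1.88 and -1.18 without untreated replicate 2. IKBKB kept a high place even so, at 1067 and 1429 in untreated cells and 2737.5 and 5598 under TNFα.

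**Figure D3:**
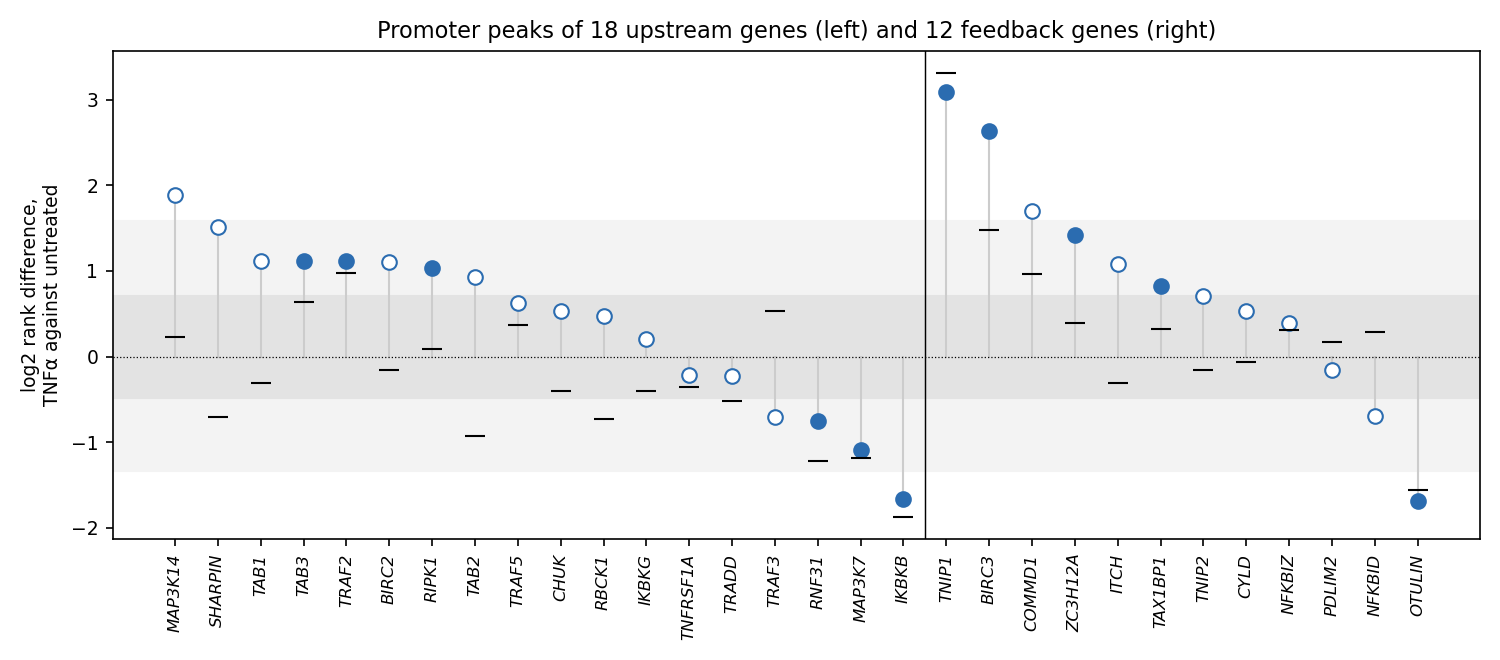
Log2 rank difference between TNFα and untreated cells (y axis, above 0 where TNFα ranked the promoter higher) for 18 upstream and 12 feedback genes of the pathway (x axis), with filled circles where the groups did not overlap, black bars for values without untreated replicate 2, and grey bands for the middle 50% and 90% of all genes. TNIP1 (3.10), BIRC3 (2.64), MAP3K14 (1.88) and COMMD1 (1.70) lie above the wider band, the latter pair with overlapping groups, and IKBKB (-1.67) and OTULIN (-1.69) below it.

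The wider windows were compared by presence. For this, the 20000 best-ranked peaks from all 6 lists were joined into regions wherever they lay within 100 bp, and a library held a region if one of its 20000 overlapped it. A region was gained if both libraries of the first condition and neither of the second held it, and lost in the converse case, and shares of all regions are of those held by at least 1 of the libraries compared. All 6 libraries held 17 of the 61 regions near the members, and 14 regions were held by 1 library.

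Against untreated cells, TNFα gained 5 of the regions near members, where 4.05% of all regions were gained, and lost 1, where 1.14% were lost. The gained regions were 4 distal regions of TNFAIP3 and the NFKBIA promoter. The lost region was a start of GBF1, which encodes an exchange factor of the Golgi, inside the window of NFKB2. GBF1 has another start near the edge of that window. The counts were 5 gained and 5 lost without untreated replicate 2, where 6.52 and 10.8% of all regions were gained and lost. They were 14 and 4 without untreated replicate 1, 10 gained without TNFα replicate 2, and 4 lost without TNFα replicate 1. For these last settings, where the rule is also looser, no share of all regions was computed.

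All distal gains of TNFα against untreated cells near members lay around TNFAIP3. Of the distal regions in the whole series, 4.99% were gained under TNFα against untreated cells and 9.52% against cobimetinib, beside 4 and 5 of the 10 distal regions of TNFAIP3. Of these 10, the region 67.1 kb before the start was held by no TNFα or untreated library. That at 48.7 kb was held by no TNFα or cobimetinib library, so the matching base is smaller in each comparison. A window of 200 kb held 4 or more regions gained against untreated cells for 31 protein-coding genes (0.155%) and 5 or more gained against cobimetinib for 7 (0.0349%), a count to which neighboring genes contribute the same regions. These limits were set at the counts of TNFAIP3 itself, so the shares describe its place and are not a test. The members' windows differed in size, and within 50 kb TNFAIP3 had 5 regions, of which 1 was gained against untreated cells and 3 against cobimetinib. The windows of the other 9 members held 50 regions with 1 gain in each of these comparisons.

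The TNFα libraries held 7 and 9 of the 11 TNFAIP3 regions, the untreated libraries 3 and 2, and the cobimetinib libraries 3 and 1. The region centered 55.7 kb before the start (chr6:137810862-137812187, outside protein-coding genes) ranked 45190.5 and 91529 in untreated cells, 14178.5 and 55658.5 under cobimetinib, and 5744.5 and 5183 under TNFα. Its peaks were 1326 and 913 bp wide under TNFα and 169 to 477 bp wide in the other 4 libraries. All 4 of those libraries ranked it below both TNFα libraries.

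Past the gene, the region 27.7 kb after the start (chr6:137894197-137895725, outside protein-coding genes) had a peak only in the TNFα lists, at 14847 and 12781. The region 111 kb after the start (chr6:137978057-137978901, outside protein-coding genes) ranked 12059 and 9015.5 under TNFα, 54939 in untreated replicate 1 and 84546.5 in cobimetinib replicate 1, and had no peak in the other 2 libraries. The region 169 kb after the start (chr6:138036022-138036610, outside protein-coding genes) ranked 9629.5 and 11687.5 under TNFα, 32564.5 in untreated replicate 1 and 37131.5 in cobimetinib replicate 1, again with no peak in the rest. The nearest protein-coding start to it is that of PERP, at 70809 bp, against 164603 bp for TNFAIP3. At each of these, TNFα was higher than every other library.

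Before the gene, the region at 34.9 kb (chr6:137831519-137833120, outside protein-coding genes) was already marked in untreated cells. It ranked 16287.5 and 11168 there, 27214.5 with no peak in replicate 2 under cobimetinib, and 8593.5 and 2894.5 under TNFα. The libraries thus fell in the order TNFα, untreated, cobimetinib without overlap, an order met by 1.96% of all regions. The region at 13.7 kb (chr6:137852779-137854418, outside protein-coding genes) ranked 15047.5 and 15081 under TNFα, 54201 and 55658.5 under cobimetinib, and 14579.5 in untreated replicate 1 with no peak in replicate 2, so TNFα and untreated cells overlapped. Both of these regions lie within WAKMAR2, on the opposite strand.

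The remaining TNFAIP3 regions were narrow and held by 1 library each. Both TNFα libraries had a peak at 53.9 kb before the start, at 29053 and 12358, and no other library had one. At 59.1 kb after the start TNFα ranked 25724 and 18781, cobimetinib 84546.5 and 36157, and untreated cells had no peak. The regions 67.1 and 48.7 kb before the start were held by cobimetinib replicate 1 and untreated replicate 2 and had no peak under TNFα.

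**Figure D4:**
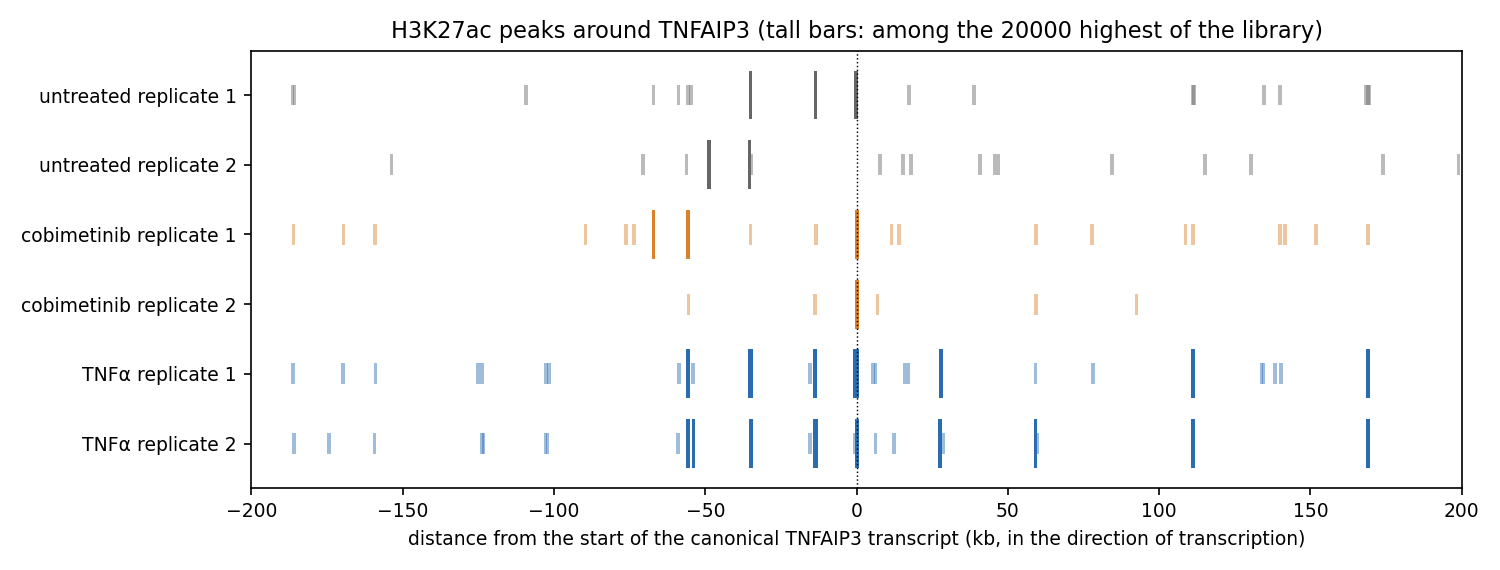
All H3K27ac peaks within 200 kb of the canonical TNFAIP3 start (x axis, kb in the direction of transcription), with 1 row per library, where tall bars are peaks among the 20000 highest of the library and short pale bars are the others. Bars narrower than 1.2 kb are drawn at that width, and the tall bars at 27.7, 111 and 169 kb after the start appear only in the TNFα rows.

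By rank, 7 of the 11 TNFAIP3 regions were higher under TNFα than in untreated cells and none was lower, and 8 were higher than under cobimetinib and none lower. Of the 11, 5 were in the set only because TNFα libraries held them, which largely fixed their direction. Among the other 6 regions, 2 were higher under TNFα than in untreated cells and 3 higher than under cobimetinib. Over all 61 regions near members, TNFα ranked 17 of the 60 with a peak above untreated cells and 5 below, where 17.4 and 9.59% of all regions met the rule. Without untreated replicate 2, 21 of 58 ranked above and 21 below, where 27.2 and 39.9% did. TNFα ranked 17 of 59 above cobimetinib and 11 below, where 24.3 and 26.0% of all regions did. Outside TNFAIP3, 10 of 50 regions were higher than in untreated cells and 9 higher than under cobimetinib.

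Sequences follow from the 6 distal TNFAIP3 regions gained under TNFα against untreated cells or cobimetinib, which were picked by that call. None of the 10 distal regions held a κB word in the 1000 bp around its center, against 11.5% of 25988 distal regions in the series. The AP1 word TGANTCA was present in 8 of the 10, against 51.3%. Of the 11 TNFAIP3 regions, 5 were in the set only through TNFα libraries, and a link between these words and the response to TNFα was not tested. Each stretch is 200 bases of hg38, centered on the first AP1 word of the region where it has one, with AP1 words in capitals. The region 27.7 kb after the start held none and is shown around its middle. Absence of a word says only that these letters were not in the window.

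55.7 kb before the TNFAIP3 start, chr6:137811494-137811693 (plus strand): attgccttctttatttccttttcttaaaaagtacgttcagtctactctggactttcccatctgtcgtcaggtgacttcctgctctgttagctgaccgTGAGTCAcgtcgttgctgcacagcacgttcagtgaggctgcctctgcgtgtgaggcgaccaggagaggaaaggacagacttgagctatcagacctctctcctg
34.9 kb before the TNFAIP3 start, chr6:137832179-137832378 (plus strand): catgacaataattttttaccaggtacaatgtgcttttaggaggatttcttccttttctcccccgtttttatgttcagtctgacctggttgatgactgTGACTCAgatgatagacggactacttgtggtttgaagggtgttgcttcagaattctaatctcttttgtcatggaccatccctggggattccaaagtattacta
13.7 kb before the TNFAIP3 start, chr6:137853638-137853837 (plus strand): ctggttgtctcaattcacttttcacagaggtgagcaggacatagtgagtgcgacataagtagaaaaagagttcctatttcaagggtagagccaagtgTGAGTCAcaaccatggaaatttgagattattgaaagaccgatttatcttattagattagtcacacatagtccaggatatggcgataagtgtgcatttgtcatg
27.7 kb after the TNFAIP3 start, chr6:137894861-137895060 (plus strand): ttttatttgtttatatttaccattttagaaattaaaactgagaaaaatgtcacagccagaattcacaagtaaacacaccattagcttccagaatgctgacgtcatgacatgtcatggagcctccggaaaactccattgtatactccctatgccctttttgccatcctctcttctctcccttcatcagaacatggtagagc
111 kb after the TNFAIP3 start, chr6:137978324-137978523 (plus strand): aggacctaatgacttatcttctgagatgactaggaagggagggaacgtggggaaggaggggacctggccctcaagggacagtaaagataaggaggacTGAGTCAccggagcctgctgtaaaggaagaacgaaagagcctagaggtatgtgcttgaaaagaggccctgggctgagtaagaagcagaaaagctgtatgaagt
169 kb after the TNFAIP3 start, chr6:138036191-138036390 (plus strand): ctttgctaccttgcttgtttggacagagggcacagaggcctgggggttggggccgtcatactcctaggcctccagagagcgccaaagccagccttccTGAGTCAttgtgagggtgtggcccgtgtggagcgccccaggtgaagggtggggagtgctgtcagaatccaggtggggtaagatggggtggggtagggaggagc

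Near NFKBIA, the promoter was the region gained in both treatments against untreated cells. The region 39.0 kb after the start (chr14:35365188-35366258, outside protein-coding genes) ranked 13452 and 13968 in untreated cells, 15529 with no peak in replicate 2 under cobimetinib, and 8987.5 and 6134 under TNFα. It fell in the same order of TNFα, untreated and cobimetinib as the region 34.9 kb before TNFAIP3. The region 30.2 kb after the start (chr14:35374085-35374992, outside protein-coding genes) was gained under cobimetinib, with ranks of 16100 and 13533.5 against 20722.5 and no peak in untreated cells. TNFα ranked it 11907 and 22018, overlapping both. A narrow region at 47.5 kb was overlapped by peaks of the TNFα lists alone, at 19056.5 and 31470, but the second covered only 76 of its 335 bp and lay mostly beside it, where libraries of the other conditions also had peaks.

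**Figure D5:**
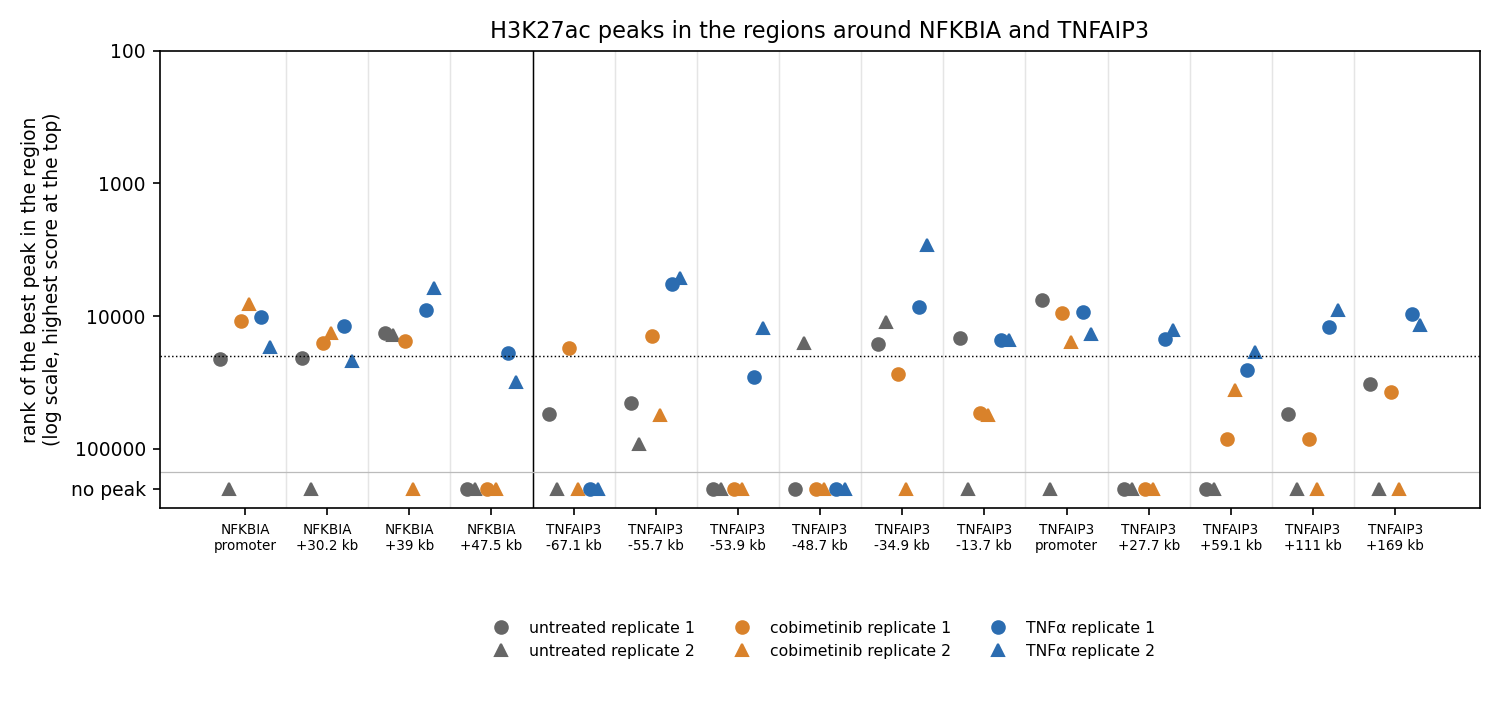
Rank of the best peak in each merged region around NFKBIA and TNFAIP3 (y axis, log scale, highest scores at the top), with circles for replicate 1 and triangles for replicate 2, ordered by distance from the canonical start (x axis labels, kb, negative before the start). The dotted line marks rank 20000, and at the TNFAIP3 regions 55.7 kb before and 27.7, 111 and 169 kb after the start both TNFα libraries lie above it and above all others.

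Cobimetinib gained 3 of the regions near members against untreated cells, where 4.38% of all regions were gained, and lost 2, where 1.79% were. The gains were the NFKBIA promoter, the region 30.2 kb after its start, and a region 11.2 kb after the RELA start. With the 10000 or the 40000 highest peaks, 0 regions near NFKBIA or RELA were gained, so these gains depended on the limit. Gains then lay near other members: BCL3 and NFKBIB with 10000, and NFKB2, NFKBIE and RELB with 40000. Untreated replicate 1 ranked the NFKBIA promoter 20987 and the region 30.2 kb after its start 20722.5, just past the limit used. The losses were the region 34.9 kb before TNFAIP3 and a start of SLC35B2, a nucleotide sugar transporter gene, 8.43 kb after the NFKBIE start. Without untreated replicate 2 the counts were 3 gained and 7 lost, where 6.84 and 12.1% of all regions were. They were 11 and 4 without untreated replicate 1, and 6 or 8 regions were gained without cobimetinib replicate 1 or 2, settings for which no share of all regions was computed.

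The RELA region (chr11:65651345-65652184, outside protein-coding genes, 1063 bp from the nearest start of another gene) ranked 31859.5 and 96281 in untreated cells and 12520 and 14477 under cobimetinib, and had no peak under TNFα. The GBF1 start that TNFα lost in the NFKB2 window (chr10:102367441-102368802) ranked 12666 and 5822.5 in untreated cells, 1428 and 4120.5 under cobimetinib, and 25101.5 and 20310 under TNFα. These regions therefore ran in the order cobimetinib, untreated, TNFα, which 1.2% of all regions met. The SLC35B2 start (chr6:44256287-44257961) ranked 17850.5 and 11736 in untreated cells, 22883 and 26053.5 under cobimetinib, and 17754 and 31470 under TNFα, where the latter overlapped both.

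Between the treatments, TNFα gained 6 of the regions near members, where 7.05% of all regions were gained, and lost 3, where 5.72% were. Of the gains, 5 were TNFAIP3 regions and 1 lay 39.6 kb before NFKBIE (chr6:44304808-44305506, within AARS2 and TMEM151B), with ranks of 14847 and 16716.5 under TNFα and 63885.5 with no peak in cobimetinib replicate 1. The losses were the same GBF1 start, the RELA region and a region 27.8 kb after the NFKBIE start (chr6:44237139-44238376), at 20836.5 and 32591 under TNFα against 12106 and 13085 under cobimetinib. Leaving out TNFα replicate 2 gave 11 gained, and 6 were lost without cobimetinib replicate 1 or TNFα replicate 1 and 7 without cobimetinib replicate 2. No share of all regions was computed beside these counts.

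The other regions with the best ranks near each member lay mostly at starts of neighboring genes. Near RELA, the start of KAT5, an acetyltransferase gene, held the best ranks of all, at 213 and 384 in untreated cells, 77 and 246.5 under cobimetinib and 421.5 and 702 under TNFα. Its TNFα ranks lay below those of both other conditions. The MAP3K11 and PCNX3 starts on the other side of RELA ranked between 1429 and 7078. Around NFKBIB, the shared start of MRPS12 and SARS2 ranked between 389 and 2503.5, with TNFα (1917.5 and 2201) below cobimetinib (389 and 1498.5), and that of HNRNPL between 3158.5 and 9374, where TNFα (4350.5 and 4976.5) lay above untreated cells (5731 and 9374).

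Near NFKB2, the CUEDC2 start ranked between 2230 and 12386 with all groups overlapping. Near NFKBIE, the start of the chaperone gene HSP90AB1 ranked 2649.5 and 6303 under TNFα, 7814 and 5822.5 in untreated cells and 11336.5 and 7679.5 under cobimetinib, so that TNFα lay above cobimetinib and overlapped untreated cells. That of SLC29A1 ranked 22336.5 and 30493.5 under TNFα, below cobimetinib (21462 and 9115.5). Near RELB, the CLPTM1 start ranked between 1251 and 7634.5, and that of CLASRP between 9652 and 120423.5, with TNFα (14458 and 17835) below cobimetinib (12734 and 13085). Near BCL3, a region 6.54 kb before the start (chr19:44741219-44743122, outside protein-coding genes) ranked between 2176 and 11168, with TNFα (5744.5 and 2747.5) below cobimetinib (2649 and 2176) and the other pairs of groups overlapping, and the CBLC start 27.9 kb after it ranked 2503.5 at best. NFKB1 had 1 further region, 120 kb after its first start and beyond its last exon (chr4:102620560-102621397), at 14921.5 and 1527 in untreated cells and 11611 to 13344.5 elsewhere. REL had 1, held by untreated replicate 2 alone at 16075.5.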

How the data were processed

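The authors trimmed reads with BBDuk, aligned them to hg38, filtered by mapping quality with samtools and called peaks in each library without an IgG background; the submitters' processing notes name BWA 0.7.15 and MACS2 2.1.1. Paired-end and single-end calls were merged with bedtools. The deposited score of a peak, a whole number of at least 20 made by the authors, rises with sequencing depth, which is unknown here, so it was used only to rank peaks within a list. Read counts were not used.

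Ranks were computed in Python 3.11.15 with pandas 2.3.3 over starts of GENCODE release 44. The best-ranked peak within 1 kb of any start stood for a promoter. A missing peak ranked below all others and took the list length plus 1 in log2 differences. Regions merged from the 20000 highest peaks were compared by presence. Calls were tested on simulated data and merging was checked against bedtools 2.31.1. Libraries made with IgG (6) were not analysed here. The sequence before 1 member's start is not reported here.

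The members and gene lists were chosen with earlier results of these data known. All members are named; of 30 other pathway genes, the 3 of largest difference in each direction among those called under TNFα; of regions, every gain or loss and the 2 best-ranked per member. Alternatives were other rank scales, windows, transcript sets, peak limits and ties, a cover rule, a replicate block and leaving out each library.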

Additional observations from a re-analysis of the deposited data

Results flagged for a closer look

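In 4 regions near members both TNFα libraries moved one way from both untreated libraries and both cobimetinib libraries the other way. Of all regions in the series, 1.96% stood in the order TNFα, untreated, cobimetinib and 1.2% in the opposite order. The difference between the treatments was not tested, since each rests on 2 libraries against 2. The region 34.9 kb before TNFAIP3 ranked higher under TNFα than under cobimetinib by 3.13 on the log2 rank scale, made up of 1.44 above and -1.69 below untreated cells. The region 39.0 kb after the NFKBIA start differed by 2.15, or 0.88 above and -1.26 below untreated cells. In both, cobimetinib replicate 2 had no peak and took the rank after the end of its list. A start of GBF1 in the NFKB2 window, 27.6 kb before the NFKB2 start, went the other way, with a difference of -3.22 (-1.39 under TNFα and 1.82 under cobimetinib). The region 11.2 kb after the RELA start did so by -2.94 (-0.90 and 2.04), with no peak under TNFα.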

How the results depend on the processing

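No reads or depths were available for a count model, so a difference smaller than the spread of 2 libraries could not be seen, and a peak absent from a list is not an absence of acetylation. Of the counts of calls recomputed under the alternatives, 70 stayed within 1.5 times the reported count and 38 did not. Leaving out a library loosens the rule: every promoter call is kept, so counts of promoter calls can only stay or rise. Other causes were not tested. Of the log2 rank differences of single members, 235 stayed within the spread between replicates and 5 did not, and no called difference changed sign. For the settings that leave out a library this was fixed in advance. Leaving out a library cannot shift a difference beyond that spread, nor turn the sign of a called difference. The count of 235 is therefore no measure of how much single libraries matter. With the 10000 highest peaks, TNFα gained 3 and lost 2 regions against untreated cells and gained 3 against cobimetinib, and cobimetinib lost 0. With the 40000 highest, TNFα gained 12 and lost 0 against untreated cells and cobimetinib lost 0. With neither limit did cobimetinib gain a region near NFKBIA or RELA, where its reported gains lay. Where peaks had to cover 50% of a region, both treatments lost 0. With 50 kb for every member, TNFα gained 2. With protein-coding transcripts only, 0 promoters were lower under TNFα. The replicate numbers are not said to pair cultures; in a paired comparison with the replicate block, 3 promoters were higher under cobimetinib than in untreated cells, in place of 1, and the other counts stayed within 1.5 times.

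Leaving out each library in turn, the promoters ranked higher numbered 5 to 7 for TNFα over untreated, 2 to 6 for cobimetinib over untreated and 3 to 6 for TNFα over cobimetinib. Those ranked lower numbered 1 to 3, 2 to 6 and 0 to 4. Gained regions numbered 5 to 14 for TNFα and 3 to 11 for cobimetinib against untreated cells, and 7 to 11 for TNFα against cobimetinib. Lost regions numbered 1 to 5, 3 to 7 and 4 to 7. Shares of all genes and regions with a library left out were computed for untreated replicate 2 only.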
